A study of Homo sapiens with 12 samples.

Results

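KIT, its ligand KITLG, the PDGF receptors PDGFRA and PDGFRB and the PDGF ligands PDGFA, PDGFB, PDGFC and PDGFD were followed through 12 RNA-seq libraries of differentiating neuroblastoma cells exposed to hydrogen peroxide. These 8 genes, out of 55765 listed in the count files, were chosen by name because KITLG, PDGFD, PDGFRA and KIT differed between treated and control cultures of the same libraries. The treated against control values of the 8 genes are therefore given as a description, without p-values.

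KIT and the PDGF receptors are closely related receptor tyrosine kinases that pair on the cell surface when a dimeric ligand binds, and pass the signal to the PI3K and RAS-ERK pathways. KITLG, also called stem cell factor, is the ligand of KIT, whereas PDGF-A and PDGF-C chains act mainly through PDGFRA, PDGF-D through PDGFRB and PDGF-B through both. PDGF-C and PDGF-D are released in a latent form and have to be cleaved by proteases before they bind. In development, KIT signalling maintains melanocyte, germ cell and mast cell precursors, and PDGFRA marks mesenchyme that comes from the neural crest, which is also the origin of neuroblastoma.

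SH-SY5Y is an established human neuroblastoma line, subcloned from the bone marrow-derived line SK-N-SH, and all-trans retinoic acid (ATRA) makes it grow neurites and leave the cell cycle. Every culture received 10 μM ATRA for 7 days. In the co-treatment experiment, 3 control cultures received ATRA alone and 3 treated cultures received H2O2 along with ATRA for the whole 7 days. In the pre-treatment experiment, 3 control cultures again received ATRA alone, and 3 treated cultures had H2O2 added 72 h before ATRA. The H2O2 concentration is written as 10 mM in the deposited design text and as 10 μM in the study's methods. All results come from 1 cell line, and no source used here says whether the pre-treatment controls were kept for a matching 72 h. Nor do the labels say whether the replicates were separate cultures grown at different times, so p-values measure the spread between these libraries, which may be technical.

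The libraries held 27576276 to 98287391 reads on genes. The pre-treatment controls were not alike. Reads outside annotated genes amounted to 0.800 and 0.830 per counted read in pre-treatment control replicates 1 and 2 but to 0.200 in replicate 3, against 0.343 to 0.462 in the pre-treated and 0.263 to 0.429 in the co-treatment experiment's libraries. Small RNA genes took 1.59% and 2.88% of the counts in control replicates 1 and 2 and 17.6% in replicate 3, against 13.3% to 15.1% in the pre-treated and 5.04% to 13.0% in the co-treatment experiment's libraries. On both measures control replicates 1 and 2 lay outside the range of the other 10 libraries, and replicate 3 lay at the opposite end of that range. Because an earlier analysis of these data found replicate 3 apart from the other controls, pre-treatment results are given with all 6 libraries and again without it. The comparison without control replicate 3 rests on control replicates 1 and 2 alone, which are the libraries outside the range of the others on these measures. Of 7 markers of noradrenergic neuroblastoma cells, 6 had a median above 1 CPM (counts per 1000000 reads on genes, after TMM normalisation), with HAND2 at 306 to 564 CPM and ISL1 at 115 to 179 CPM. The exception was TH, the first enzyme of catecholamine synthesis, at 0.0104 to 0.263 CPM. The blood and mast cell list, relevant because mast cells carry KIT, summed to at most 0.704 CPM, and FCER1A had no count in all 12 libraries. In the endothelial list CDH5 was at 0 in 9 libraries and the sum reached 1.78 CPM. The Schwann and glial list summed to 6.58 to 9.02 CPM, with FOXD3 at 0 in all 12 libraries.

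The 8 genes spanned several orders of magnitude in these cells. On a per-length scale (CPM per kb of exon, RPKM), PDGFRA had the highest median over the 12 libraries at 35.6 RPKM, ranging from 13.3 to 56.1. PDGFRB followed at 14.3 RPKM (11.4 to 24.6), and its range overlapped that of PDGFRA. KITLG had a median of 6.35 RPKM (2.37 to 12.5) and PDGFD of 4.16 RPKM (1.43 to 5.79), again with overlapping ranges. KIT at 0.165 RPKM (0.0449 to 0.404), PDGFC at 0.125 RPKM (0.0254 to 0.289) and PDGFA at 0.0921 RPKM (0.0372 to 0.195) lay far below and overlapped each other. PDGFB, at a median of 0.00518 RPKM and no more than 8 reads in a library, was close to undetected. Both PDGF receptors and the ligands KITLG and PDGFD were thus well covered by reads, while KIT, PDGFA, PDGFC and PDGFB were rare transcripts. The order was the same when the longest annotated transcript replaced the union of exons as length.

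**Figure D1:**
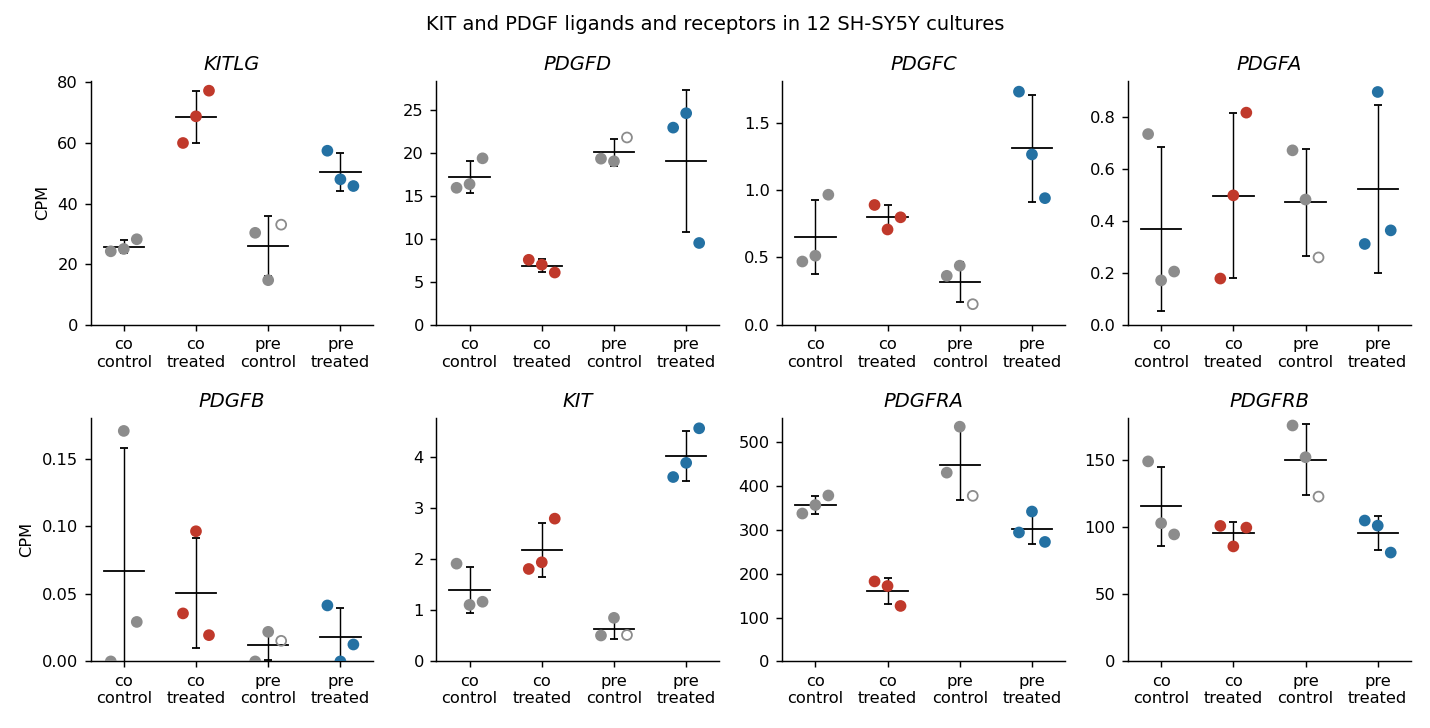
Expression of the 8 genes in CPM (linear axes starting at 0, a separate scale for each gene) in the 3 libraries of each group. Points are libraries, horizontal lines are means and error bars are SD (cut off at 0), and the open circle is pre-treatment control replicate 3. KITLG was higher in all treated libraries of both experiments, PDGFRA was lower, PDGFD was lower in the co-treated libraries with overlap in pre-treatment, and KIT was highest in the pre-treated libraries.

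The promoters of the 4 genes named in the choice are shown because these genes differed in opposite directions. Each run covers the 250 bases upstream of a RefSeq transcription start (GRCh38.p14, whereas the reads were mapped to hg19), written 5′ to 3′ on the strand of the gene, with motif matches in capitals. The motifs searched on both strands were the GC box GGGCGG, the TATA box TATAAA, the AP-1 core TGANTCA, the hypoxia response core ACGTG and the antioxidant response core TGACNNNGC. The windows are chr12:88580472-88580721 (minus strand) for KITLG, chr4:54657707-54657956 (plus strand) for KIT, chr4:54229043-54229292 (plus strand, the first of 2 listed starts) for PDGFRA and chr11:104164148-104164397 (minus strand) for PDGFD.
KITLG: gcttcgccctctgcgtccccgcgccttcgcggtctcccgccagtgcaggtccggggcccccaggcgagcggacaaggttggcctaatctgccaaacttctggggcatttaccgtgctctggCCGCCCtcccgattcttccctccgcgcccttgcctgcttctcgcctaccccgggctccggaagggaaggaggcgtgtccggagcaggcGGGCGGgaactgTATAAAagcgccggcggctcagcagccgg
KIT: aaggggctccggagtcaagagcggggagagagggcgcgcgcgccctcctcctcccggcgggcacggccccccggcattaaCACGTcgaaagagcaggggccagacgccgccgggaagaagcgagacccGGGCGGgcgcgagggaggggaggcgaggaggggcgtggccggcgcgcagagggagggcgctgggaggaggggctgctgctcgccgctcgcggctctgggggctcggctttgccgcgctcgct
PDGFRA: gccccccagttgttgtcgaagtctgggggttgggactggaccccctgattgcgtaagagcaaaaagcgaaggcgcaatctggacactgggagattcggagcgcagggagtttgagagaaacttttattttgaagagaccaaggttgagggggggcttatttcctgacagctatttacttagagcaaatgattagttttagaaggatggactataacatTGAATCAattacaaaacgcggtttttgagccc
PDGFD: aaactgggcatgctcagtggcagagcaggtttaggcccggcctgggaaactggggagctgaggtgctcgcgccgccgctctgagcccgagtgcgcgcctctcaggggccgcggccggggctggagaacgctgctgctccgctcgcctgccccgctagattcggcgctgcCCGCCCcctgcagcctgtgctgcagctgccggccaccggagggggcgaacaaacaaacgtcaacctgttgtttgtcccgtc

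The KITLG window held GC boxes 129 and 41 bases before the start and a TATA box at 29 bases. The KIT window held a GC box 122 bases and a hypoxia response core match 170 bases before the start, the PDGFD window a GC box at 81 bases, and the PDGFRA window an AP-1 core match at 32 bases. GC content was 76.4% in the KIT window, 69.2% in the KITLG and PDGFD windows and 46.8% in the PDGFRA window. Over all 35116 RefSeq promoters of the same length, GGGCGG occurred in 42.6%, TATAAA in 10.7%, TGANTCA in 6.57%, ACGTG in 18.5% and TGACNNNGC in 10.9%. Of the 8 genes, 6 have an entry, with 10 promoters in all. Of these 10, the GC box was matched in 9, among them a PDGFRA promoter other than the window shown, the TATA box, the AP-1 core and the hypoxia response core in 1 each and the antioxidant response core in 0. Such matches are letters in a window and were not tested as binding sites.

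Among the ligands, KITLG was higher in treated cultures of both experiments. KITLG (hg19 chr12:88886570-88974628, minus strand) was measured at 24.2, 25 and 28.2 CPM in the co-treatment controls and at 60.0, 68.8 and 77.2 CPM in the co-treated libraries. The groups were well apart, with a mean of 25.8 ± 2.11 CPM against 68.7 ± 8.63 CPM (SD, n = 3), a log2FC of 1.42 (SE 0.13) and a fold of 2.67. In the pre-treatment experiment KITLG was at 30.3, 14.7 and 33.0 CPM in the controls and at 57.4, 48.0 and 45.8 CPM in the treated libraries. These groups did not overlap either, although control replicate 2 lay well below the other two controls. The log2FC was 0.98 (SE 0.30) with all 6 libraries and 1.23 (SE 0.28) without control replicate 3.

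PDGFD was lower in co-treated cultures, whereas its pre-treatment groups overlapped. PDGFD (hg19 chr11:103777917-104035107, minus strand) was at 16, 16.4 and 19.4 CPM in the co-treatment controls and at 7.57, 7.01 and 6.09 CPM in the co-treated libraries. The groups did not overlap, with means of 17.3 ± 1.88 and 6.89 ± 0.750 CPM (SD, n = 3) and a log2FC of -1.32 (SE 0.16), or 2.50-fold lower. In pre-treatment, the controls were at 19.4, 19.1 and 21.8 CPM and the treated libraries at 23.0, 24.7 and 9.53 CPM. Treated replicate 3 was the lowest of these 6 libraries and the other two treated libraries the highest, so that the log2FC was -0.05 (SE 0.33). Without treated replicate 3 it was 0.27, and without control replicate 3 it was 0.06 (SE 0.35). An exon of DDI1 on the opposite strand overlaps PDGFD, and because the strand setting of the counting is not given in the sources used here, reads of that stretch cannot be told apart.

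PDGFC was a rare transcript that was more abundant after pre-treatment. PDGFC (hg19 chr4:157681606-157892951, minus strand) was counted at 20, 20 and 10 reads in the pre-treatment controls, or 0.363, 0.438 and 0.152 CPM. The pre-treated libraries held 167, 86 and 75 reads, or 1.73, 1.26 and 0.940 CPM. All 3 treated libraries lay above all 3 controls, with a log2FC of 2.09 (SE 0.49), and of 1.79 (SE 0.39) without control replicate 3. In co-treatment the controls were at 0.469, 0.512 and 0.965 CPM and the treated libraries at 0.889, 0.707 and 0.797 CPM, which overlapped (log2FC of 0.31, SE 0.41).

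PDGFA and PDGFB gave no usable difference at this depth. PDGFA (hg19 chr7:536895-559933, minus strand) was at 5 to 61 reads per library, with group means between 0.37 and 0.524 CPM that were closer together than the replicates. Its log2FC was 0.45 (SE 0.66) in co-treatment and 0.18 (SE 0.57) in pre-treatment. PDGFB (hg19 chr22:39619364-39640987, minus strand) had no read in 3 libraries and at most 8 in the others, and was the only gene of the 8 below the count filter.

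Among the receptors, KIT showed the largest fitted log2FC of the 7 genes tested. KIT (hg19 chr4:55523434-55606949, plus strand) was at 28, 39 and 34 reads in the pre-treatment controls, or 0.508, 0.855 and 0.518 CPM. The pre-treated libraries held 349, 265 and 365 reads, or 3.62, 3.89 and 4.57 CPM. The lowest treated library was well above the highest control, with means of 4.03 ± 0.492 against 0.627 ± 0.197 CPM (SD, n = 3), a log2FC of 2.72 (SE 0.32) and a fold of 6.58. Control replicate 3, which differed from replicates 1 and 2 in the library measures, had a KIT level close to that of replicate 1, and the log2FC without it was 2.64 (SE 0.31). In co-treatment KIT was at 1.92, 1.11 and 1.17 CPM in the controls and at 1.81, 1.94 and 2.80 CPM in the treated libraries. These groups overlapped through control replicate 1, with a log2FC of 0.65 (SE 0.31).

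PDGFRA, the neighbour of KIT on chromosome 4, was lower in treated cultures of both experiments. PDGFRA (hg19 chr4:55095447-55164412, plus strand) was at 338, 357 and 379 CPM in the co-treatment controls and at 183, 172 and 127 CPM in the co-treated libraries. The groups were far apart, with means of 358 ± 20.6 and 160 ± 29.8 CPM (SD, n = 3), a log2FC of -1.15 (SE 0.15), or 2.23-fold lower. In pre-treatment the controls were at 431, 536 and 378 CPM and the treated libraries at 294, 342 and 273 CPM. The groups did not overlap but came close, with a log2FC of -0.53 (SE 0.19), and of -0.60 (SE 0.14) without control replicate 3.

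PDGFRB, the receptor of PDGF-B and PDGF-D and a pericyte marker in tissues, differed less. PDGFRB (hg19 chr5:149493402-149535435, minus strand) was at 149, 103 and 94.5 CPM in the co-treatment controls and at 101, 85.5 and 99.5 CPM in the co-treated libraries. These groups overlapped (log2FC of -0.27, SE 0.17). In pre-treatment the controls were at 176, 152 and 123 CPM and the treated libraries at 105, 101 and 81.0 CPM, so that all treated libraries were lower, with a log2FC of -0.62 (SE 0.19), and of -0.70 (SE 0.14) without control replicate 3. In bulk RNA, fewer cells that carry a receptor and less RNA per cell cannot be told apart.

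**Figure D2:**
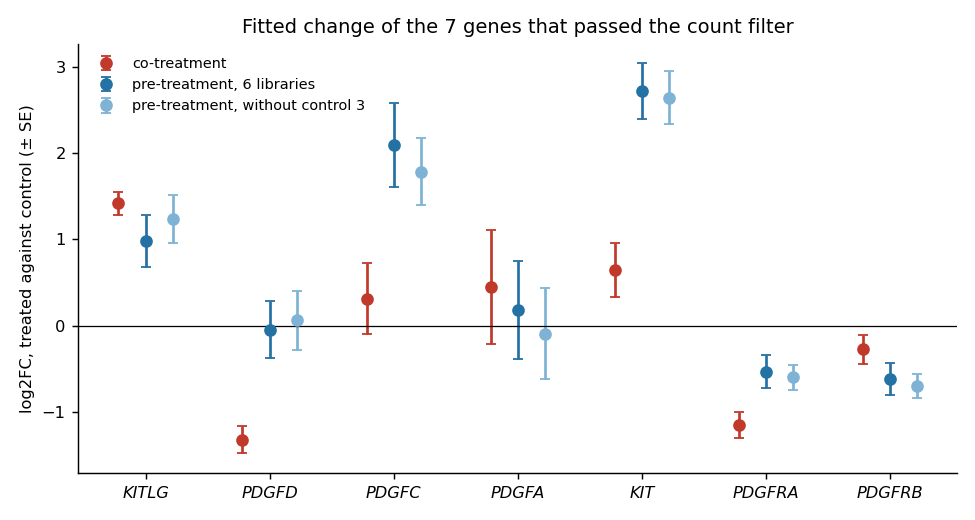
Fitted log2FC of treated against control cultures (points, with SE as bars) for the 7 genes above the count filter, in co-treatment, in pre-treatment with all 6 libraries and in pre-treatment without control replicate 3. KITLG lies above 0 and PDGFRA below 0 in each, PDGFD is at -1.32 in co-treatment but near 0 in pre-treatment, and KIT and PDGFC lie highest in pre-treatment.

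With a call set at a false discovery rate (FDR, Benjamini-Hochberg over all genes tested) below 0.05 and an absolute log2FC above 0.6, edgeR's quasi-likelihood test called KITLG, PDGFRA and PDGFD in co-treatment, 3 of the 7 genes tested, beside 0.598% of all 22089 genes. With an absolute log2FC above 1, it called 0 of the 7 genes in pre-treatment with all 6 libraries, beside 0.0242% of 24743 genes. At an unadjusted p under 0.05 it passed 2776 genes (11.2%) there, and DESeq2 and edgeR's exact test each called KIT and PDGFC. The quasi-likelihood test called KIT there when no filter was used. Without control replicate 3 it called KIT, KITLG and PDGFC, beside 11.2% of 26350 genes, and PDGFRA and PDGFRB passed the FDR alone, as did 26.1% of all genes. Because the 8 genes were picked on these contrasts, nothing is read from these counts. In co-treatment, 1 gene was higher and 2 were lower in all treated libraries, beside 6.58% and 7.37% of all genes. In pre-treatment, 3 were higher and 2 lower, beside 7.97% and 8.47% of all genes. The median log2FC of the 7 genes was 0.31 in co-treatment and 0.18 in pre-treatment, against -0.001 and -0.007 over all genes tested.

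How these values varied with the processing is likewise a description. Over 12 alternatives the co-treatment log2FC of KITLG was 1.32 to 1.5. The calls of PDGFRA and PDGFD were lost without co-treated replicate 3, at a log2FC of -1.01 and -1.23. Without pre-treatment control replicate 3, the log2FC of KIT was 2.32 to 3.06 over 11 alternatives. The corresponding KITLG call was lost without control replicate 2 (log2FC of 0.81), and the PDGFC call without control replicate 1, control replicate 2 or treated replicate 1, with a log2FC of at least 1.52 in all.

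**Figure D3:**
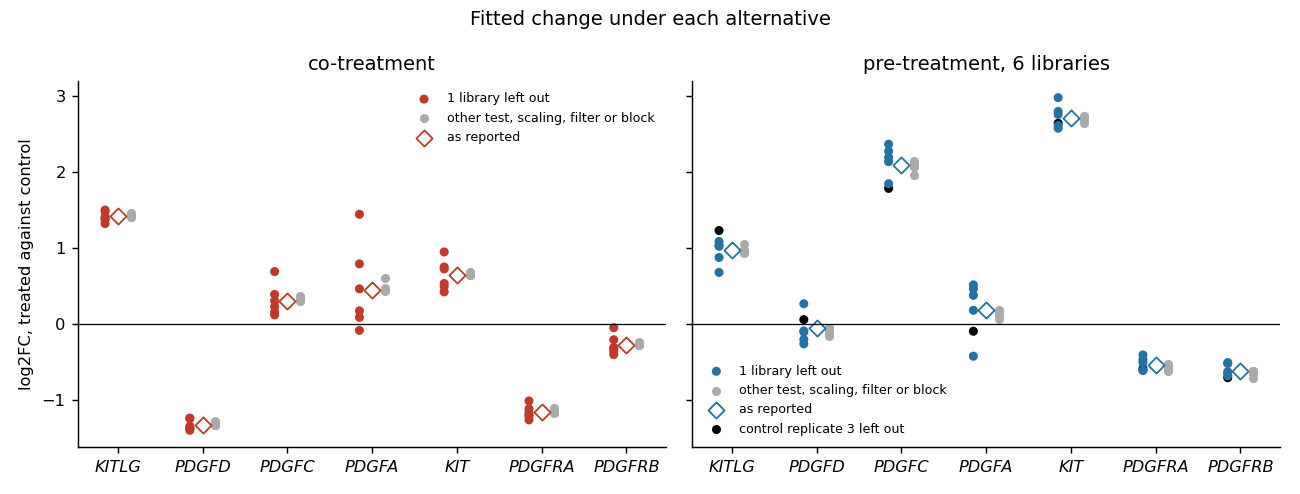
Fitted log2FC of the 7 genes with 1 library left out (coloured points, black where it is pre-treatment control replicate 3), under another test, scaling, filter or block (grey) and as reported (open diamonds). KITLG stays between 1.32 and 1.5 in co-treatment and KIT between 2.58 and 2.98 in pre-treatment, whereas PDGFA spans 0 in both.

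Set against each other within a library, the genes gave ratios that need no scaling between libraries. The ratio of PDGFRA to PDGFRB, per exon length, was 1.70, 2.60 and 3.00 in the co-treatment controls and 1.35, 1.5 and 0.950 in the co-treated libraries. All co-treated libraries lay below the controls. In co-treated replicate 3 PDGFRA was the lower of the pair per union of exons (13.26 against 13.95 RPKM). With the longest annotated transcript as length it was the higher one (19.85 against 17.46 RPKM). In pre-treatment the same ratio was 1.84, 2.64 and 2.30 in controls and 2.1, 2.53 and 2.52 in treated libraries, which overlapped. The ratio of KITLG to KIT was 109, 31.4 and 116 in the pre-treatment controls and 29.0, 22.5 and 18.3 in the pre-treated libraries. In co-treatment it was 23.1, 41.1 and 44 in controls and 60.4, 64.6 and 50.4 in treated libraries. The ligand thus exceeded its receptor in every library, by a smaller ratio in the pre-treated libraries than in their controls and by a larger one in the co-treated libraries. The ratio of PDGFD to PDGFC was 47.9, 45.1 and 28.3 in the co-treatment controls against 12, 13.9 and 10.7 in the co-treated libraries. In pre-treatment it was 75.1, 61.2 and 202 against 18.7, 27.5 and 14.3, where the 202 rests on 10 PDGFC reads. Treated libraries were the lower ones in both experiments, with PDGFD lower in co-treatment and PDGFC higher in pre-treatment. Because these ratios combine genes picked on the same contrasts, they remain a description.

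**Figure D4:**
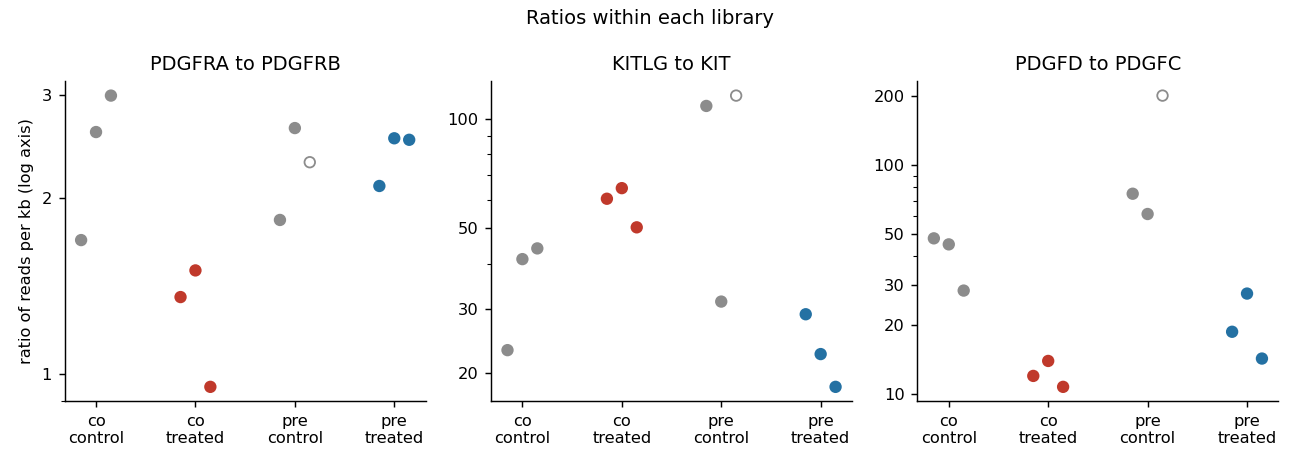
Ratios of reads per kb of exon (log axes) within each of the 12 libraries for PDGFRA to PDGFRB, KITLG to KIT and PDGFD to PDGFC, with pre-treatment control replicate 3 as an open circle. PDGFRA to PDGFRB was lower in the co-treated libraries, KITLG to KIT was lower in the pre-treated libraries, and PDGFD to PDGFC was lower in the treated libraries of both experiments.

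The difference between the experiments in the response, fitted over all 12 libraries as pre-treatment minus co-treatment log2FC, was 2.05 (SE 0.44) for KIT, 1.75 (SE 0.62) for PDGFC and 1.25 (SE 0.38) for PDGFD. It was 0.59 (SE 0.25) for PDGFRA, -0.46 (SE 0.33) for KITLG, -0.37 (SE 0.27) for PDGFRB and -0.29 (SE 0.96) for PDGFA. At an FDR below 0.05, 0 of the 7 genes were called by edgeR's quasi-likelihood test, beside 0.0287% of 24407 genes. KIT was called without pre-treatment control replicate 3, by DESeq2 and with no filter, and PDGFD was called with no filter. These values use the contrasts on which the genes were picked and remain a description.

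The control cultures of the 2 experiments, all on ATRA without H2O2, were also set against each other. They are the reference side of the contrasts on which the genes were picked, so the values of the 8 genes are again a description. KIT was lower in all 3 pre-treatment controls than in all 3 co-treatment controls, with a log2FC of -1.16 (SE 0.42). PDGFC was also lower in all 3, with a log2FC of -1.02 (SE 0.58), and 5.89% of all genes were lower in this way. The other 5 genes ranged from 0.02 (KITLG) to 0.39 (PDGFRB) in log2FC. By edgeR's quasi-likelihood test 0 of the 7 genes and 0 of 23739 genes (0%) were called, with 1551 genes (6.53%) at an unadjusted p under 0.05, while DESeq2 called 26 genes. The pre-treatment KIT and PDGFC differences are thus set against controls whose KIT and PDGFC levels were numerically the lowest of the 4 groups. Experiment and any difference in handling or date cannot be told apart in this comparison.

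The pathway around these receptors was followed in 130 genes in 8 lists, which were chosen with earlier results of these data known. The shares of list genes that passed, and the adjusted p of the named ones, are therefore a description too. In co-treatment 3 of 116 tested genes passed the test (2.59%, against 0.598% of all genes), 1 higher and 2 lower. PLAT, the tissue plasminogen activator that cleaves latent PDGF-C, was at 26.1, 22.5 and 23.8 CPM in controls and at 68.4, 70.0 and 79.4 CPM in co-treated libraries. It rose by a log2FC of 1.59 (SE 0.13, adjusted p = 3.02e-04, edgeR quasi-likelihood), with all treated libraries above all controls. SPRY1, a Sprouty feedback inhibitor of receptor tyrosine kinase signalling, was at 76.4, 72.3 and 63.8 CPM in controls and at 39.7, 29.0 and 29.8 CPM in co-treated libraries. It fell by 1.11 on the log2 scale (SE 0.15, adjusted p = 0.00505, edgeR quasi-likelihood), a call that was lost without co-treated replicate 3 (log2FC of -1.05, adjusted p = 0.0812). SPRY2, from the same family, was at 18.2 to 20.4 CPM in controls and 10.6 to 11.8 CPM in co-treated libraries and fell by 0.75 (SE 0.14, adjusted p = 0.0322, edgeR quasi-likelihood), a call that was lost with scaling by library size alone (adjusted p = 0.0952) and without co-treatment control replicate 2 or 3 or any treated replicate (adjusted p = 0.0514 to 0.225). In the other 6 lists, covering related receptors and ligands, adaptors, PI3K and AKT, RAS, ERK and STAT, phosphatases and redox enzymes, and ERK-responsive transcripts, 0 genes passed. The median log2FC of the 116 genes was -0.06 (51 higher, 65 lower), against -0.001 over all genes, and that of the 16 feedback inhibitors tested was -0.12.

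In pre-treatment with all 6 libraries 1 of 117 genes passed (0.855%, against 0.0242% of all genes), and the median log2FC was -0.08 (44 higher, 73 lower) against -0.007 over all genes. By list, the median ran from -0.33 in the ERK-responsive transcripts and -0.31 in the feedback inhibitors to 0.24 in the tyrosine phosphatases and redox enzymes. The gene that passed was NRP1, a neuropilin co-receptor for semaphorins and VEGF that also associates with PDGF receptors. NRP1 was at 0.526, 0.394 and 0.823 CPM in the pre-treatment controls and at 6.83, 5.95 and 8.84 CPM in the pre-treated libraries. It rose by a log2FC of 3.64 (SE 0.36, adjusted p = 0.0442, edgeR quasi-likelihood), with every treated library far above every control. This call was lost with scaling by library size alone (log2FC of 3.63, adjusted p = 0.0575), and when any library other than control replicate 3 was left out (log2FC of 3.42 to 3.77, adjusted p = 0.178 to 0.408). Without control replicate 3 the log2FC was 4.03 (SE 0.31, adjusted p = 8.13e-04, edgeR quasi-likelihood). In co-treatment NRP1 was at 2.08, 1.49 and 1.58 CPM in controls and 2.20, 3.31 and 2.26 CPM in treated libraries. That difference did not pass (log2FC of 0.60, SE 0.27, adjusted p = 0.608, edgeR quasi-likelihood). PLAT was at 16.5, 8.41 and 20.1 CPM in the pre-treatment controls and 59.0, 45.7 and 13.4 CPM in the treated libraries, where treated replicate 3 lay among the controls, and did not pass (log2FC of 1.41, SE 0.52, adjusted p = 0.377, edgeR quasi-likelihood).

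Without control replicate 3, 16 of 118 pathway genes passed in pre-treatment, 13.6% against 11.2% of all genes, 4 higher and 12 lower (2.98% and 8.23% of all genes), with adjusted p from 6.18e-04 to 0.0436 (edgeR quasi-likelihood). Besides NRP1, the higher ones were PLAU, the urokinase that can activate PDGF-D, with a log2FC of 1.31 (SE 0.40), the cytokine signalling inhibitor SOCS3 at 1.00 (SE 0.23) and PHLDA1 at 1.22 (SE 0.27). Among ligand-processing genes and co-receptors, LRP1, an endocytic receptor that binds PDGFRB, was lower by a log2FC of -2.11 (SE 0.15) and the gelatinase MMP2 by -1.02 (SE 0.12). Among proximal signalling genes, the ubiquitin ligase CBL was at -1.56 (SE 0.13), the kinase SRC at -1.45 (SE 0.18) and the RAS exchange factor SOS1 at -1.09 (SE 0.14). Further along the pathway the PI3K catalytic subunit PIK3CB was at -1.38 (SE 0.15), the RAF scaffold KSR1 at -1.08 (SE 0.16), the phosphatase PTPN12 at -1.0 (SE 0.11) and the immediate early gene EGR1 at -2.64 (SE 0.33). The feedback inhibitors SPRED2, SPRY4 and SPRED3 were at -1.69 (SE 0.15), -1.51 (SE 0.17) and -1.38 (SE 0.32). Each of these calls rests on 2 controls. LRP1, for example, was at 420 and 458 CPM in control replicates 1 and 2 but at 86.2 CPM in replicate 3, against 77.9 to 107 CPM in the treated libraries. EGR1 was at 61.2 and 68.8 CPM in replicates 1 and 2 and at 16.8 CPM in replicate 3, against 5.21 to 13.8 CPM in the treated libraries. For both genes control replicate 3 was thus closer to the treated libraries than to control replicates 1 and 2. For KIT and NRP1 it was closer to control replicates 1 and 2. In NRP1 it was still the highest control, at 0.823 CPM against 0.526 and 0.394 CPM. In the comparison of the control cultures, 0 of 116 pathway genes passed by edgeR's quasi-likelihood test and 1 by DESeq2.

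**Figure D5:**
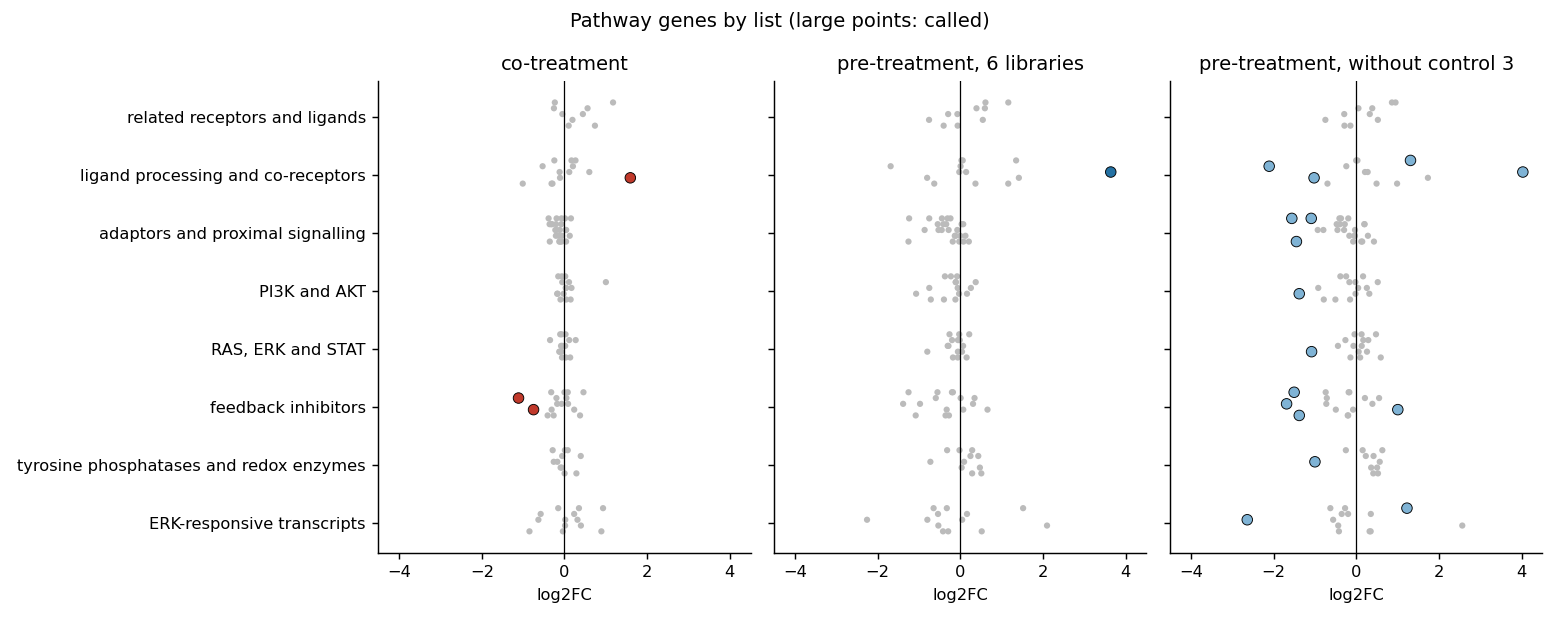
Fitted log2FC (horizontal axes) of the tested pathway genes in 8 lists (rows, with vertical scatter only to separate points) in co-treatment, in pre-treatment with all 6 libraries and in pre-treatment without control replicate 3. Large outlined points passed the test: 3 in co-treatment, 1 (NRP1, at 3.64) in pre-treatment and 16 without control replicate 3.

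The protein-coding genes beside KITLG and beside the PDGFRA-KIT pair were looked up for comparison. TMTC3 and CEP290 lie on one side of KITLG, 293 and 351 kb away, and DUSP6 and POC1B on the other, 766 and 839 kb away. In co-treatment their log2FC ranged from -0.26 (DUSP6, SE 0.13) to 0.12 (TMTC3, SE 0.11). In pre-treatment with all 6 libraries it ranged from -0.36 (DUSP6, SE 0.22) to 0.81 (CEP290, SE 0.20, adjusted p = 0.320, edgeR quasi-likelihood). Around PDGFRA and KIT, CHIC2 had a log2FC of -0.15 (SE 0.15) in co-treatment and 0.09 (SE 0.25) in pre-treatment, SRD5A3 was at 0.14 (SE 0.16) and 0.16 (SE 0.23), KDR was too low to test in co-treatment and GSX2 in both. None of the 8 neighbours was called in any of the comparisons in which it was tested, and GSX2 was tested in none. Without control replicate 3, CEP290 passed the FDR alone (log2FC of 0.72, SE 0.17, adjusted p = 0.0169, edgeR quasi-likelihood), as did 26.1% of all genes.

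The genes most alike in pattern were found by the smallest root mean square difference of centred log2 CPM over the 12 libraries among 21930 genes, against which the median gene differed by 0.692 to 1.06. Nearest to KITLG were the transcript AP000479.1 (0.200), the guanine nucleotide exchange factor RAPGEF4 (0.224) and the endothelin receptor EDNRA (0.228). EDNRA went from 21.8 ± 1.69 to 48.8 ± 2.71 CPM in co-treatment and from 24.0 ± 12.5 to 45.2 ± 5.24 CPM in pre-treatment (SD, n = 3). Nearest to PDGFRA were CCDC68 (0.208), SPRY1 (0.212) and the small GTPase RHOU (0.219). Nearest to PDGFD were RGS13 (0.285), MPP4 (0.314) and AC078941.1 (0.317). Nearest to KIT were the protocadherin PCDH10 (0.319), VIM (0.325), which encodes the intermediate filament vimentin, and CCDC80 (0.353). PCDH10 was a rare transcript, at 0.184 ± 0.0750 CPM in co-treatment controls and 0.0931 ± 0.0903 CPM in pre-treatment controls (SD, n = 3). Its pattern there rests on few reads. VIM went from 7.27 ± 2.25 to 16.2 ± 1.39 CPM in co-treatment and from 4.04 ± 0.966 to 21.3 ± 1.73 CPM in pre-treatment (SD, n = 3). Without pre-treatment control replicate 3, TMEM176B replaced RAPGEF4 and DACT1 replaced CCDC80.

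Markers of cell state moved with some of these differences. The noradrenergic markers summed to 1386 to 1912 CPM in the co-treatment controls and 1068 to 1402 CPM in the treated libraries, and to 1224 to 2060 CPM in the pre-treatment controls and 833 to 1156 CPM in the treated ones. The mesenchymal markers summed to 272 to 406 and 311 to 332 CPM in co-treatment and to 334 to 451 and 338 to 348 CPM in pre-treatment, with overlap in both. Of these 8 markers, 5 had a median above 1 CPM, with TWIST1 at 118 to 192 CPM and FN1 at 66.9 to 235.5 CPM. YAP1, COL1A1 and PRRX1 did not, and PRRX1 was at 0 in 8 libraries. The pericyte and smooth muscle list, almost all of it RGS5 at 4931 to 7465 CPM, summed to 6506 to 7137 CPM in the co-treatment controls and 5585 to 5953 CPM in the treated libraries, and to 6793 to 7578 and 4986 to 6662 CPM in pre-treatment. The noradrenergic sum in pre-treatment and the pericyte sum in both experiments were thus lower in the treated libraries without overlap. This was the direction of PDGFRA. Of all single genes, 7.37% in co-treatment and 8.47% in pre-treatment were lower in this way. In the noradrenergic list DBH ranged most widely, from 123.5 to 1097 CPM. The much lower blood and mast cell sum was higher in pre-treated libraries (0.279 to 0.326 against 0.0438 to 0.152 CPM). It was lower in co-treated libraries (0 to 0.117 against 0.143 to 0.704 CPM). The part of these sums in the receptor differences was not tested.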

How the data were processed

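Total RNA was depleted of ribosomal RNA, made into TruSeq Stranded libraries and sequenced paired-end. The authors checked reads with FastQC (0.11.8), trimmed them with Cutadapt (2.10), mapped them to hg19 with HISAT2 (2.1.0) and counted them per gene with htseq-count (0.7.2). The deposited per-library counts were used as they are, without the closing entries for uncounted reads. The strand setting and annotation version are not given in the sources used here. The 2 deposited series tables hold the authors' edgeR fold changes, mean log2 CPM and p-values and were not used.

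Groups followed the labels, with 3 libraries in each of 4 groups. Genes were kept where the number of libraries above a CPM cutoff (5 counts on the scale of the shallowest library) was no less than the smaller group's size, and were tested with the quasi-likelihood test of edgeR 4.0.16 (TMM factors, R 4.3.3) and Benjamini-Hochberg adjustment over all genes tested. SE is the absolute log2FC divided by the square root of the F statistic. RPKM used the exon lengths of the hg19 annotation of GENCODE. Alternatives were RLE factors, library size alone, no filter, DESeq2 1.42.0, edgeR's exact test, a replicate block and leaving out each library. The script was tested on simulated data. The 8 genes, the lists and the tests were chosen with earlier results of these data known. Named were the 8 genes, up to 3 called genes per list, comparison and direction, the 2 nearest protein-coding genes on each side of KITLG and of PDGFRA-KIT, and the 3 most alike genes for each of 4 genes.
One marker of the noradrenergic list is not reported here and was left out of its sums.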

Additional observations from a re-analysis of the deposited data

Results flagged for a closer look

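NRP1, from the pathway lists, was singled out because its response differed between the experiments in a test of the difference itself. The lists were chosen with earlier results of these data known. The pre-treatment log2FC exceeded the co-treatment log2FC by 3.02 (SE 0.43, adjusted p = 0.0353, edgeR's quasi-likelihood test over all 12 libraries). In pre-treatment all 3 treated libraries (5.95 to 8.84 CPM) lay above all 3 controls (0.394 to 0.823 CPM), as in 7.97% of all genes. In co-treatment all 3 treated libraries (2.20 to 3.31 CPM) lay above all 3 controls (1.49 to 2.08 CPM), as in 6.58% of all genes. The co-treatment difference did not pass (log2FC of 0.60, SE 0.27, adjusted p = 0.608, edgeR's quasi-likelihood test).
The call was lost with a replicate block (adjusted p = 0.14) and when any library other than pre-treatment control replicate 3 was left out, with a difference of 2.83 to 3.24 and an adjusted p of 0.0527 to 0.136 in the same test.
The NRP1 controls themselves were apart, with all 3 pre-treatment controls below all 3 co-treatment controls and a log2FC of -1.55 between them (SE 0.40, unadjusted p = 0.00441, adjusted p = 0.692, edgeR's quasi-likelihood test). That control difference did not pass. The same controls enter the difference in response, and their part in it was not tested.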

How the results depend on the processing

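In co-treatment the 132 called genes (74 higher, 58 lower) became 80 with scaling by library size alone (57 higher, 23 lower), 443 with no filter and 307 with both DESeq2 and the exact test, and ranged from 18 (without co-treated replicate 3) to 218 when 1 library was left out. Pathway genes called there went from 3 to 5 with no filter and with DESeq2 (1 to 3 with 1 library left out), and the 3 members called ranged from 1 to 3. In pre-treatment with all 6 libraries the 6 called genes became 1 with library size alone, 300 with no filter, 501 with DESeq2, 231 with the exact test and 0 with the replicate block (0 to 2952 with 1 library left out). Members called there went from 0 to 1 with no filter and to 2 with DESeq2 and the exact test (0 to 3), and pathway genes from 1 to 0 with library size alone and with the block, 7 with no filter, 8 with DESeq2 and 5 with the exact test (0 to 16). Without control replicate 3 the 2952 calls (784 higher, 2168 lower) ranged from 1064 to 3540, the members called from 1 to 3 and the pathway genes from 9 to 20. With library size alone the split there was 399 higher and 3014 lower, where the median of all genes moved from 0.01 to -0.21, and in the difference between the experiments that median moved from -0.04 to -0.12. Between the control cultures the 0 calls became 26 with DESeq2, 11 with the exact test and 1 with the block (0 to 2612), with 1 pathway gene under DESeq2 (0 to 10). For the difference between the experiments the 7 calls became 4 with library size alone, 272 with no filter, 108 with DESeq2 and 3 with the block (0 to 2058), members called went from 0 to 2 with no filter and 1 with DESeq2 (0 to 1), and pathway genes from 1 to 7 with no filter and 0 with the block (0 to 18). In each range the highest value of the pre-treatment, control and difference comparisons over all libraries came without pre-treatment control replicate 3. The causes were not tested.

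Replicate numbers were not taken to pair the samples. Residual correlations of same-numbered libraries were -0.04, -0.08 and -0.06 in co-treatment and -0.24, 0.05 and -0.28 in pre-treatment, where no sample correlated best with its own number. Between the control groups they were 0.30, -0.15 and 0.23, and replicate 3 correlated best with its own number. The replicate block called 180 genes in co-treatment. Counts under 100 reads limit what can be said of KIT in controls, PDGFA, PDGFB and PDGFC.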
